A study of Ovis aries with 3 samples.

Results

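Somitic cells of the sheep embryo were taken here as the single cells that held at least 1 UMI of *TWIST1*, a helix-loop-helix transcription factor of mesenchyme, together with at least 1 UMI of *MEOX1*, a homeobox gene of the somite. A UMI is a molecular tag that lets each captured RNA molecule be counted once. Cells were left out if more than 1 of the 4 muscle genes *MYF6*, *MYLPF*, *KLHL41* and *TNNC2* was detected or if *AHSP*, a haemoglobin chaperone of red blood cells, reached 5 UMIs. By this rule 835 cells were members, of 31576 cells that passed the quality limits (200 to 6000 genes, 1000 to 30000 UMIs and at most 10% of UMIs on mitochondrial genes). The levels of *TWIST1*, *MEOX1*, *AHSP* and the muscle genes therefore chose the cells and are given only as a description.

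The cells came from whole embryos of 2 sheep breeds, dissociated with collagenases and measured by droplet single-cell RNA sequencing. The E19 HSTS sample was an embryonic day 19 embryo of the Hulunbuir short-tailed sheep, the E19 HS sample an embryo of the Hu sheep of the same day, and the E16 HS sample came from the Hu sheep at embryonic day 16. The study genotyped its animals as homozygous for a point mutation in *T* (Brachyury) in HSTS and as homozygous wild type in HS, and it compared the breeds in search of the origin of the short tail. Estrus of the ewes had been synchronized with progesterone sponges followed by pregnant mare serum gonadotropin in both breeds, and red blood cells were lysed in all samples before capture. For the E16 HS sample the sample label named 1 embryo while the study described 3, so it may be a pool. Each group was 1 library, so breed, genotype, embryo and library cannot be told apart in the first comparison, nor stage, embryo and library in the second. No test between groups was possible. All intervals are exact 95% intervals that cover counting error only.

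Somites are blocks of paraxial mesoderm that bud off in pairs beside the neural tube as the presomitic mesoderm is segmented by oscillating Notch, WNT and FGF signals. Each somite then divides into a ventral sclerotome, which is marked by *PAX1*, *PAX9* and *SOX9* and forms vertebrae and ribs, and a dorsal dermomyotome, which is marked by *PAX3* and *PAX7* and forms skeletal muscle and dermis. *T* acts earlier, in the primitive streak, the tail bud and the notochord, where it is needed for new paraxial mesoderm and for outgrowth of the tail.

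The E19 HSTS sample held 339 somitic cells among 9618 kept cells (3.52%, interval 3.17 to 3.91). The E19 HS sample held 238 among 10629 (2.24%, 1.97 to 2.54), and the E16 HS sample 258 among 11329 (2.28%, 2.01 to 2.57). The median depth of the somitic cells was 8294 UMIs in the E19 HSTS sample, 7346.5 in the E19 HS sample and 10179 in the E16 HS sample. In the other kept cells the medians were 8719, 6880 and 9008 UMIs, and the complete libraries held between 94754580 and 128271878 UMIs. Cells were also thinned to 3000 UMIs before the rule was applied, and shallower cells were left out. The shares were then 0.881% of 8512 E19 HSTS cells, 0.797% of 9284 E19 HS cells and 0.599% of 10012 E16 HS cells. The excess in the E19 HSTS sample was therefore much smaller at equal depth, where the rule found only 75, 74 and 60 cells.

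Most somitic cells sat close to the threshold. Exactly 1 UMI of each gene was found in 120 of the E19 HSTS cells (35.4%), 91 of the E19 HS cells (38.2%) and 98 of the E16 HS cells (38.0%). The median was 1 UMI of *TWIST1* and 1 UMI of *MEOX1* per cell in each sample, and the maxima were 11 UMIs of *TWIST1* and 15 UMIs of *MEOX1*. At least 2 UMIs of each gene were held by 53, 25 and 45 cells. Just outside the rule lay 1309, 1564 and 1312 cells with *TWIST1* but not *MEOX1*, and 352, 271 and 396 cells with *MEOX1* but not *TWIST1*. The muscle limit removed 14, 3 and 2 cells that held both genes and the *AHSP* limit 16, 6 and 10, of which 1 E19 HSTS cell failed both. Just inside these limits, 34, 14 and 13 somitic cells held 1 muscle gene and 28, 7 and 61 held 1 to 4 UMIs of *AHSP*.

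Free RNA in the droplets and mixed droplets were gauged from other cells. Among red blood cells, taken as kept cells with at least 20 UMIs of *AHSP*, both *TWIST1* and *MEOX1* were found in 7 of 1468 cells in the E19 HSTS sample (0.477%), 2 of 1029 in the E19 HS sample (0.194%) and 5 of 1562 in the E16 HS sample (0.320%). These cells were deeper than the somitic cells, with medians of 20060, 19549 and 15356 UMIs, so the share of somitic cells stood above the blood level in all 3 samples. No doublets were removed. A doublet caller marked 2, 1 and 1 of the somitic cells, but in the E19 HS sample it marked only 48 of 10629 kept cells and had not worked there. The libraries shared between 38 and 42 cell barcodes in pairs, and none of these was a somitic cell.

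The label was checked on genes that the rule did not use. The levels are CPM, the UMIs of a gene summed over the somitic cells of a sample per 1000000 of their UMIs, and the reference is the other kept cells of the same sample. Among 6395 genes with at least 50 UMIs in the somitic cells of the 3 samples together, 99 (1.55%) were at least 2-fold higher in all 3 samples and 47 (0.735%) at least 2-fold lower. The median ratio over these genes was 1.53, 1.25 and 1.18, so a ratio near these values is no excess. Of the 10 pan-somitic genes tested, 6 were at least 2-fold higher in all 3 samples, as were 4 of the 6 sclerotome genes and all 3 dermomyotome genes tested. Because the cells were chosen by genes that go with these lists, the counts describe the cells and test nothing.

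The leading genes, those whose lowest of the 3 ratios to the other cells was largest, included many of the somite. *UNCX*, a homeobox gene of the caudal somite, stood at 24.1 CPM in the E19 HSTS sample, 19.5 in the E19 HS sample and 18.7 in the E16 HS sample, against 2.35, 2.05 and 1.40 CPM in the other cells. *MEOX2*, the paralogue of *MEOX1*, stood at 59.6, 48.0 and 32.4 CPM, against 6.50, 6.94 and 3.03. *TCF15* (paraxis), which is needed for the epithelial form of somites, stood at 9.83, 7.49 and 16.4 CPM, against 1.32, 1.14 and 1.71. In each sample these genes were between 6.56 and 13.4 times as high in the somitic cells. *FOXC2*, a forkhead factor of paraxial mesoderm, stood at 8.24, 8.99 and 7.01 CPM against 1.59, 1.68 and 1.59. *EBF2*, a helix-loop-helix factor, stood at 39.6, 49.5 and 42.4 CPM against 8.76, 9.15 and 6.51. *CER1*, a secreted antagonist of BMP and Nodal, stood at 10.8, 14 and 41.7 CPM against 1.25, 1.64 and 6.93, and between 34% and 47% of its UMIs lay in 3 cells of each sample. The other leading genes were *PAX1*, *GAS2*, which encodes an actin-binding protein, *PDE5A*, a phosphodiesterase of cyclic GMP, *NTN1* (netrin), *SERTAD4* and *RBM20*.

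**Figure D1:**
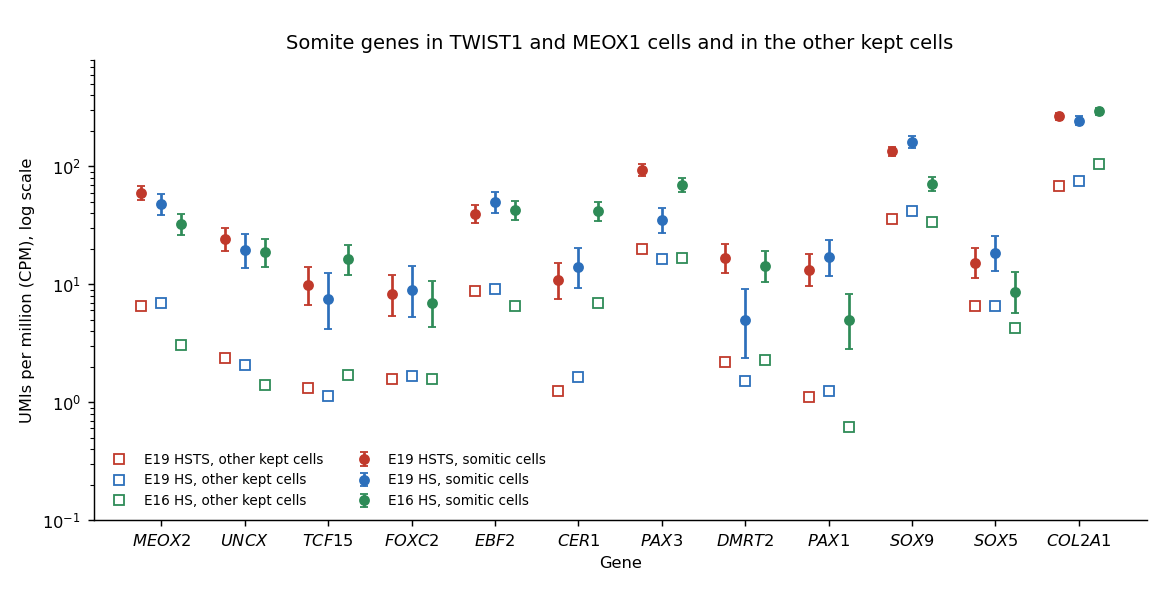
Levels of 12 somite genes in CPM (log axis) in the somitic cells (filled circles with exact 95% Poisson intervals) and in the other kept cells (open squares) of the E19 HSTS, E19 HS and E16 HS samples. Each gene lies above its level in the other cells in all 3 samples; *PAX3* and *DMRT2* are lowest in the E19 HS sample, and *PAX1*, *SOX9* and *SOX5* are lowest in the E16 HS sample.

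Markers of other cell types were low. The summed level of 6 blood genes was 84.3, 83.9 and 103 CPM in the somitic cells against 2110, 1242 and 1483 CPM in the other cells, and the rule had capped *AHSP*, which is 1 of the 6. Neural genes summed to 67.8, 72.9 and 43.1 CPM against 201, 268 and 92, and *SOX10*, the defining gene of migrating neural crest, was at 0 UMIs in all somitic cells. The 11 genes of limb and lateral plate summed to between 5.99 and 9.51 CPM, against 23.1 to 67.6. Epithelial, extraembryonic, nephric and myeloid lists were also lower than in the other cells in each sample. The endothelial list was not, at 57.7, 71.9 and 31.4 CPM against 53.8, 84.5 and 24. Most of it was *PLVAP*, a protein of endothelial diaphragms, with 152 UMIs in the E19 HSTS sample, while *CDH5*, which defines endothelium, had 1, 0 and 0 UMIs. The notochord list was higher in the somitic cells, at 16.2, 16 and 13 CPM against 9.74, 10.9 and 6.43, but nearly all of it was *SPON1* (spondin), while *FOXA2* and *NOTO* were at 0 in each sample.

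At least 1 cardiac gene was detected in many somitic cells, but nearly all of these cells held only 1 of the genes. At least 1 UMI of 5 cardiac markers was found in 159 cells of the E19 HSTS sample (46.9%), 68 of the E19 HS sample (28.6%) and 122 of the E16 HS sample (47.3%). Members with at least 2 of the 5 markers numbered 7 in the E19 HSTS sample, 3 in the E19 HS sample and 3 in the E16 HS sample. The cardiac list summed to 214, 45.5 and 62.8 CPM against 270, 226 and 63.7 in the other cells. Over the 3 cardiac genes tested, the median ratio to the other cells was 0.75, 0.12 and 0.16, so the sums do not describe each gene. In the E19 HSTS sample the 7 cells held 98.9% of the UMIs of *MYL7*, the atrial myosin light chain. *SST* (somatostatin) stood at 154 CPM in the E19 HS sample, and all of these UMIs came from 1 cell. The part of mixed droplets in these values was not tested.

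Few somitic cells held both a dermomyotome and a sclerotome mark. *PAX3* or *PAX7* without *PAX1* or *PAX9* was found in 111 somitic cells of the E19 HSTS sample (32.7%, interval 27.8 to 38.0), 42 of the E19 HS sample (17.6%, 13 to 23.1) and 100 of the E16 HS sample (38.8%, 32.8 to 45.0). *PAX1* or *PAX9* without *PAX3* or *PAX7* was found in 37 (10.9%, 7.80 to 14.7), 35 (14.7%, 10.5 to 19.9) and 11 cells (4.26%, 2.15 to 7.5). Both marks were found together in 1, 1 and 3 cells, where 12.6, 6.50 and 5.59 would be found if the marks were independent. In the E16 HS sample the 3 cells were part of only 14 with *PAX1* or *PAX9*. No mark was detected in 190, 160 and 144 cells, so between 55.8% and 67.2% of the somitic cells could not be placed by these 4 genes at this depth.

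Depth differed between the samples, so the shares were also taken after thinning the somitic cells to 3000 UMIs, with shallower cells left out. *PAX3* or *PAX7* was then found in 20.4% of 334 cells in the E19 HSTS sample, 9.24% of 238 in the E19 HS sample and 17.6% of 256 in the E16 HS sample. *PAX1* or *PAX9* was found in 4.19%, 7.56% and 2.34%. Thinning left the E19 HS sample lowest for the dermomyotome mark and highest for the sclerotome mark, but placed the E19 HSTS sample above the E16 HS sample for *PAX3* or *PAX7*, as the CPM of *PAX3* did. Cells with both marks numbered 0 in each thinned sample, which allows shares of up to 0.898%, 1.26% and 1.17%. Independent marks would give only 2.85, 1.66 and 1.05 such cells at that depth, so the thinned cells could not show that the marks avoid each other. In the deeper red blood cells *PAX3* was found in 1.23%, 0.680% and 1.34% and *PAX1* in at most 0.204% of any sample.

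**Figure D2:**
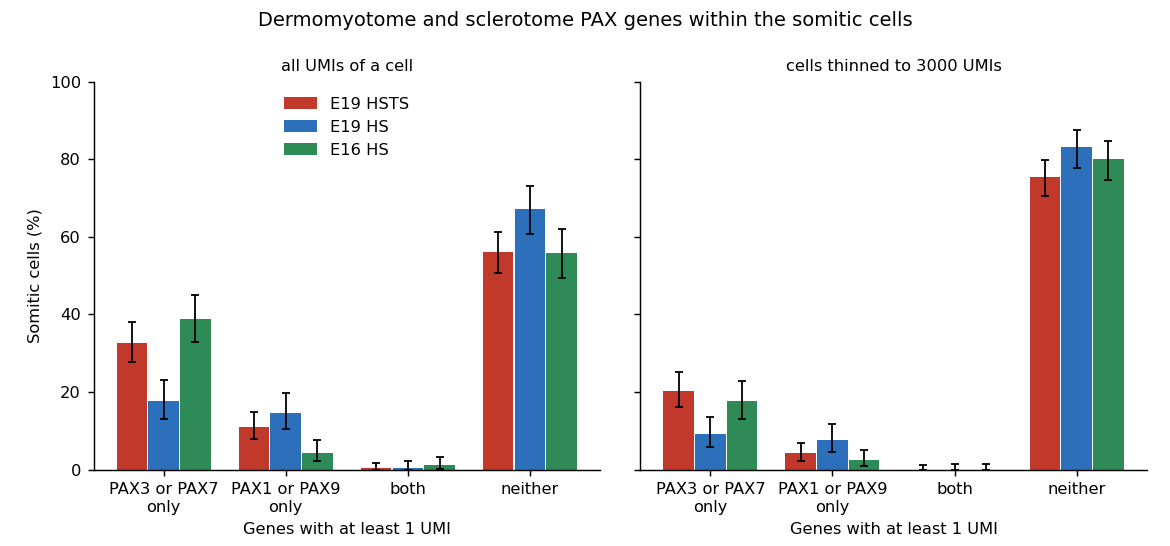
Share of somitic cells (%) with UMIs of *PAX3* or *PAX7* only, of *PAX1* or *PAX9* only, of both and of neither, in each sample, with all UMIs (left) and after thinning to 3000 UMIs (right); bars start at 0 and lines are exact 95% binomial intervals. The E19 HS sample is lowest for *PAX3* or *PAX7* and highest for *PAX1* or *PAX9* in both panels.

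Genes of the same compartment were more often detected in the same cells. *DMRT2*, a DM-domain factor of the dermomyotome, was detected in 36 of 111 *PAX3* cells in the E19 HSTS sample (32.4%) and in 3.07% of the remaining somitic cells. In the E16 HS sample it was in 26 of 103 *PAX3* cells (25.2%) against 2.58%. In the E19 HS sample it was in 4 of 42 (9.52%) against 3.06%, which is a contrast of few cells. Cells with *PAX3* or *PAX7* had a higher median depth than cells with neither mark, and after thinning to 3000 UMIs *DMRT2* was found in 8 of 67 *PAX3* cells (11.9%) against 2.62% in the E19 HSTS sample, in 1 of 22 (4.55%) against 1.39% in the E19 HS sample, and in 4 of 45 (8.89%) against 4.27% in the E16 HS sample. *SOX9*, which starts the cartilage programme, showed the opposite order, at 15.3%, 33.3% and 30.1% of the *PAX3* cells against 58.8%, 63.8% and 47.1% of the rest. It was found in 28 of 32 *PAX1* cells of the E19 HSTS sample, 25 of 31 of the E19 HS sample and 11 of 13 of the E16 HS sample. These shares were 87.5%, 80.6% and 84.6%, against 40.1%, 55.1% and 38.0% of the cells without *PAX1*. *UNCX*, which divides somites along their length and not from back to belly, was found in 16.2%, 9.52% and 16.5% of the *PAX3* cells and in 15.8%, 14.3% and 14.2% of the rest.

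The same split was seen in the summed levels. In cells with *PAX3* or *PAX7*, *SOX9* stood at 20.4 CPM against 201 in the rest of the E19 HSTS somitic cells, at 55.0 against 191 in the E19 HS sample and at 36.2 against 105 in the E16 HS sample. *VCAN*, a proteoglycan of loose mesenchyme, stood at 343 against 848 CPM, 302 against 698, and 439 against 691. *PDGFRA*, a growth factor receptor of mesenchyme, stood at 21.3 against 62.6 CPM, 20.6 against 47.3, and 36.2 against 80.3. These genes were lower in the *PAX3* or *PAX7* cells in all 3 samples, as were *SFRP1*, a secreted WNT antagonist, and *EBF2*. *FGF8*, a ligand of the tail bud and of the early myotome, was higher in them, at 25.5 against 4.04 CPM, 45.8 against 5.75, and 23.2 against 5.88. *DLL3*, a Notch ligand of the presomitic mesoderm and somite, was also higher, at 30.7 against 10.1 CPM, 25.2 against 8.94, and 97.7 against 23.5. *MEOX1* did not separate the cells, with ratios between 0.97 and 1.02, whereas *TWIST1* was lower in cells with *PAX3* or *PAX7*, at 0.70, 0.52 and 0.60 of its level in the rest. Both genes had chosen the cells, and these ratios are descriptions across cells of 1 library each.

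**Figure D3:**
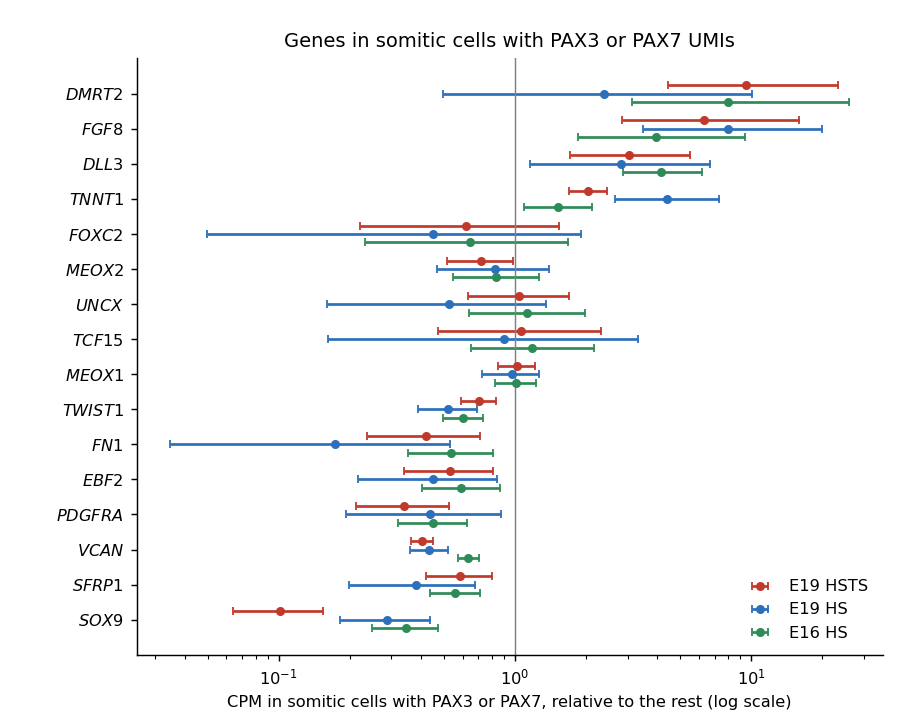
CPM of 16 genes in somitic cells with *PAX3* or *PAX7* UMIs relative to the remaining somitic cells of the same sample (log axis, line at 1; bars are exact 95% conditional binomial intervals). *DMRT2*, *FGF8*, *DLL3* and *TNNT1* lie to the right in all 3 samples, with an interval that crosses 1 for *DMRT2* in the E19 HS sample, and *SOX9* lies between 0.10 and 0.34.

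Regulators of skeletal muscle were at or near 0. *MYOD1* and *MYOG*, which commit cells to muscle, were at 0 UMIs in all 3 samples, where a count of 0 allows up to 0.951, 1.5 and 1.00 CPM. *MYF5*, the earliest muscle regulator, had 8, 2 and 7 UMIs. *DES* (desmin) stood at 18.7, 12.5 and 14 CPM. Cells with more muscle genes had been removed by the rule. Tendon and late cartilage genes were also near 0, with *SCX*, *MKX* and *TNMD* at 0 to 2 UMIs each and *ACAN* and *MATN4* at 0. *COL2A1*, the collagen of cartilage and of early sclerotome, was present at 266, 243 and 294 CPM against 68.1, 74.6 and 105 in the other cells.

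Segmentation genes were sparse in all samples. *TBX6* and *NRARP* were at 0 UMIs in the somitic cells, and *MESP1*, *MESP2*, *MSGN1* and *HES7*, which define presomitic mesoderm, had 0 to 2 UMIs in each sample. Most of the list's UMIs belonged to the Notch ligands *DLL1* and *DLL3*, whose levels are given with the comparisons, and to *NKD1*, an antagonist of WNT signalling that the pathway itself induces. *NKD1* had 76 UMIs in the E19 HSTS sample, 34 in the E19 HS sample and 54 in the E16 HS sample, or 24.1, 17.0 and 18.0 CPM, against 6.95, 8.88 and 18.0 CPM in the other cells. *T* itself had 0 UMIs in the E19 HSTS somitic cells, 1 in the E19 HS cells and 6 in the E16 HS cells, so its level could not be compared.

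Genes of the signals that pattern somites included receptors, feedback genes and retinoic acid genes, and the activity of the pathways was not measured. *PTCH1*, the hedgehog receptor that is induced by its own pathway, stood at 22.5, 20.5 and 30.7 CPM against 10.1, 10.8 and 12.4 in the other cells. *DUSP6*, an FGF feedback phosphatase, stood at 117, 102 and 102 CPM against 39.2, 39.9 and 73.9. *FGFR1* stood at 75.4, 62.9 and 68.1 CPM against 36.6, 37.2 and 32.2. Each of these was higher in the somitic cells in every sample. *CRABP2*, a carrier of retinoic acid, stood at 266, 183 and 343 CPM against 148, 147 and 202. *ALDH1A2*, which makes retinoic acid in somites, stood at 16.5, 9.49 and 19.4 CPM against 5.98, 6.31 and 6.16. The E19 HS sample was lowest for both. The list of 9 retinoic acid genes did not follow them, at 1813, 1638 and 1318 CPM against 1553, 1784 and 1473. Of the 5 tested, none was at least 2-fold higher in all 3 samples.

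Summed cell-cycle RNA was higher in the somitic cells than in the other cells, though in part by no more than most genes. The 13 S phase genes summed to 958, 774 and 1066 CPM against 616, 592 and 785 in the other cells. The 9 G2 and M phase genes summed to 1952, 1776 and 2276 CPM against 1189, 1038 and 1306. The ratios were 1.56, 1.31 and 1.36 for S phase and 1.64, 1.71 and 1.74 for G2 and M phase. The median ratios of all tested genes were 1.53, 1.25 and 1.18. The S phase ratios, and that of G2 and M phase in the E19 HSTS sample, were close to these medians. None of the 12 S phase or 9 G2 and M phase genes tested was at least 2-fold higher in all 3 samples.

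The *HOX* genes place cells along the body axis, since higher paralogue numbers start farther back. The 36 *HOX* genes listed summed to 597 CPM in the E19 HSTS sample, 479 in the E19 HS sample and 518 in the E16 HS sample, against 289, 279 and 306 CPM in the other cells. Paralogues 1 to 3 stood at 80.2, 74.9 and 72.8 CPM and paralogues 6 to 8 at 207, 185 and 172 CPM, with small differences between samples. Paralogues 4 to 5 stood at 156, 91.9 and 108 CPM. Between the E19 samples this is a ratio of 1.69 (interval 1.43 to 2.02), against 1.08 in the other cells. Paralogue 9 stood at 135, 112 and 162 CPM, and the E16 HS level was 1.44 times the E19 HS level (1.23 to 1.69), against 1.03 in the other cells. Paralogues 10 to 13, which mark the most caudal trunk and the tail, had 57, 29 and 10 UMIs, or 18.1, 14.5 and 3.34 CPM. The E16 HS level was 0.23 times the E19 HS level (0.10 to 0.49), while in the other cells the E16 HS sample was 2.12 times as high.

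**Figure D4:**
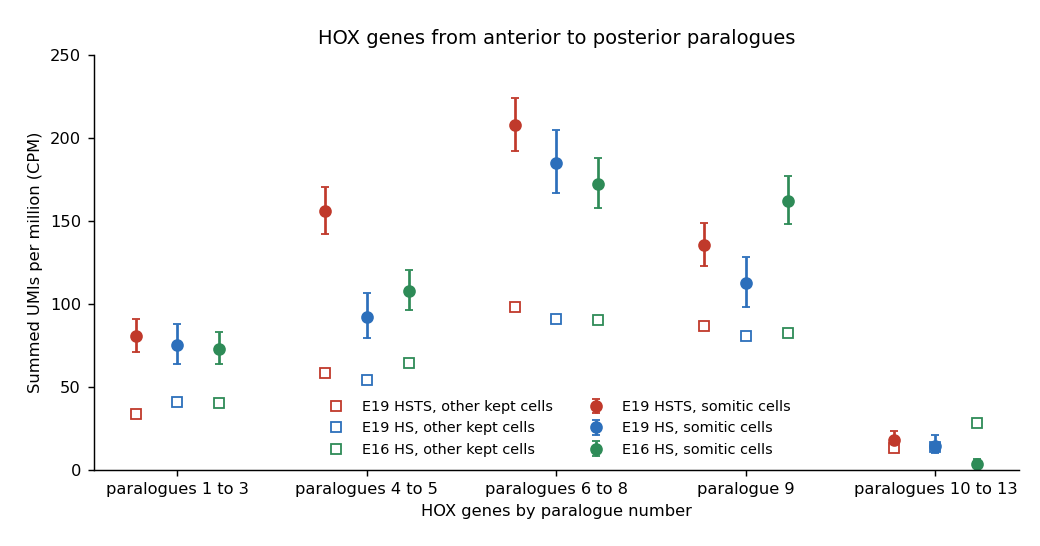
Summed CPM of *HOX* genes by paralogue number in the somitic cells (filled circles with exact 95% Poisson intervals) and in the other kept cells (open squares) of each sample. Paralogues 4 to 5 are highest in the E19 HSTS sample, and paralogues 10 to 13 are lowest in the E16 HS somitic cells at 3.34 CPM although that sample is highest in the other cells.

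The E19 HSTS and E19 HS samples address the difference between the short-tailed breed and the Hu sheep at the same stage. The clearest somite gene was *PAX3*, the leading gene of the dermomyotome, at 93.2 CPM (294 UMIs) in the E19 HSTS sample and 35.0 CPM (70 UMIs) in the E19 HS sample, with 69.4 CPM (208 UMIs) in the E16 HS sample. The ratio of the E19 HSTS to the E19 HS sample was 2.67 (interval 2.05 to 3.51), or 2.37 relative to the median ratio of all genes. In the other kept cells the ratio of *PAX3* was 1.20. It was 1.42 (1.17 to 1.73) in the cells with *MEOX1* but not *TWIST1*, and 1.85 (1.56 to 2.19) in the cells with *TWIST1* but not *MEOX1*. The excess was therefore present in all 3 classes, with its highest value in the somitic cells. With at least 2 UMIs of each of *TWIST1* and *MEOX1*, on 53 and 25 cells, the ratio was 10.5. Only 8% of the 25 E19 HS cells then held *PAX3* or *PAX7*, so this value rests on very few cells. Under the other settings tried the ratio was 2.38 to 3.05.

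Among 5343 genes tested, 140 (2.62%) were at least 2-fold higher and 32 (0.599%) at least 2-fold lower in the E19 HSTS sample. The median ratio was 1.13, a log2 shift of 0.17, and with median-of-ratios size factors the counts were 84 and 55. Both dermomyotome genes that were tested, *PAX3* and *DMRT2*, were among those higher. *DMRT2* stood at 16.8 CPM (53 UMIs) in the E19 HSTS sample, 5.00 (10 UMIs) in the E19 HS sample and 14.4 (43 UMIs) in the E16 HS sample. Its ratio was 3.36 (1.69 to 7.42), against 1.44 in the other cells, but 1.56 on the few cells with at least 2 UMIs of each rule gene. In the cells with *TWIST1* but not *MEOX1* the ratio of *DMRT2* was 2.39 (1.62 to 3.58). In those with *MEOX1* but not *TWIST1* it was 1.44 (0.87 to 2.43). The summed dermomyotome list had a ratio of 2.23 (1.82 to 2.77), most of which was *PAX3*, against 1.11 in the other cells. The other 9 genes of the list, among them *PAX7* and *EYA1*, had under 50 UMIs in the E19 samples together. They did not all lie on that side. *PAX7* had 12 UMIs in the E19 HSTS sample and 2 in the E19 HS sample, but *MET* had 8 in each and *LBX1* had 0 and 2. The summed ratio therefore says little about these 9 genes.

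Sclerotome genes did not share this excess. None of the 6 tested reached 2-fold in either direction, and the summed ratio was 1.00 (0.93 to 1.09). The median over the 6 genes was 0.83. *PAX1* stood at 13.3 CPM (42 UMIs) in the E19 HSTS sample, 17.0 (34 UMIs) in the E19 HS sample and 5.01 (15 UMIs) in the E16 HS sample, and the ratio of the E19 samples was 0.78 (0.49 to 1.27). *SOX9* stood at 134, 161 and 71.4 CPM, a ratio of 0.83 (0.72 to 0.96) between the E19 samples, against 0.85 in the other cells. *COL2A1* had a ratio of 1.09 (0.98 to 1.22). The interval of *PAX1* included 1, so a difference was not detectable at this depth.

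Most of the 7 pan-somitic genes tested differed little. *UNCX* and *MEOX2* both had a ratio of 1.24, with intervals of 0.83 to 1.87 and 0.97 to 1.61, and *EBF2* had a ratio of 0.80 (0.61 to 1.05). None of the 7 reached 2-fold, and their median was 1.22. *ALDH1A2* had a ratio of 1.74 (1.01 to 3.11) against 0.95 in the other cells, and *CRABP2* a ratio of 1.45 (1.28 to 1.64) against 1.01.

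In the signalling lists, 1 of 3 hedgehog genes tested reached 2-fold. This was *GLI3*, the main repressor among the hedgehog transcription factors, at 13 CPM (41 UMIs) in the E19 HSTS sample, 4.50 (9 UMIs) in the E19 HS sample and 9.35 (28 UMIs) in the E16 HS sample. The ratio was 2.89 (1.38 to 6.77), against 0.88 in the other cells. It was 1.35 (1.02 to 1.80) in the cells with *TWIST1* but not *MEOX1* and 0.97 (0.47 to 2.05) in those with *MEOX1* but not *TWIST1*. *PTCH1* had a ratio of 1.10 (0.74 to 1.66). *LEF1*, a nuclear partner of WNT signalling, stood at 15.2, 7.99 and 25.7 CPM and had a ratio of 1.90 (1.06 to 3.59). None of the 5 WNT, 4 FGF, 7 BMP and TGF-beta or 4 retinoic acid genes tested reached 2-fold. The BMP and TGF-beta list was lower in sum, at 967 CPM in the E19 HSTS sample and 1247 in the E19 HS sample. Its ratio was 0.77 (0.73 to 0.82), against 0.61 in the other cells, with 5 of the 7 genes below 1 and 2 above. The summed ratios of the WNT, FGF and retinoic acid lists were 0.98, 1.14 and 1.11. The segmentation list summed to 73.2 CPM in the E19 HSTS sample, 47.0 in the E19 HS sample and 134 in the E16 HS sample. Its ratio between the E19 samples was 1.56 (1.22 to 2.00), against 0.78 in the other cells. *DLL1* had 39 UMIs in the E19 HSTS sample and 9 in the E19 HS sample, of which 78% lay in 3 cells. *NKD1* had a ratio of 1.42 (0.94 to 2.19). *DLL3* had a ratio of 1.42 (0.87 to 2.38), which was 0.389 on the cells with at least 2 UMIs of each rule gene. In the cells with *MEOX1* but not *TWIST1* the ratio was 0.58 (0.38 to 0.87) for *DLL3* and 1.10 for *DLL1*. In those with *TWIST1* but not *MEOX1* the ratios were 1.18 and 1.51.

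Of the 16 *HOX* genes tested, 14 were above 1 and 2 reached 2-fold, with a median of 1.41. *HOXC5* stood at 18.7, 6.49 and 6.34 CPM, a ratio of 2.88 (1.56 to 5.72) between the E19 samples. *HOXB4* stood at 12.7, 5.00 and 17.0 CPM, a ratio of 2.54 (1.25 to 5.69). The median over all tested genes was 1.13, and 9 of the 16 lay above it.

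Other genes were picked only by the size of their ratio. *FAP*, a membrane protease of mesenchyme, stood at 45.3 CPM (143 UMIs) in the E19 HSTS sample, 14.5 (29 UMIs) in the E19 HS sample and 0.668 (2 UMIs) in the E16 HS sample. Its ratio between the E19 samples was 3.13 (2.09 to 4.84), against 1.83 in the other cells. *PLCH1*, a phospholipase C, stood at 29.5, 9.99 and 36.7 CPM and had a ratio of 2.95 (1.81 to 5.05) against 1.07 in the other cells. It was named after its values were seen. Both excesses were also present in the neighbouring cells with only 1 of the rule's genes, with ratios of 2.25 and 2.09 for *FAP* and 1.77 and 2.48 for *PLCH1*. *TNNT1*, a slow muscle troponin, stood at 155, 34.5 and 52.4 CPM and had a ratio of 4.49 (3.48 to 5.86) against 2.01 in the other cells, with 34% and 32% of its UMIs in 3 cells of each E19 sample. *DCN* (decorin) stood at 45.3, 16.0 and 45.7 CPM, and 62% of its E19 HSTS UMIs lay in 3 cells. With cells thinned before the rule the ratio of *TNNT1* was 12.3, and without the 3 highest cells that of *DCN* was 1.84.

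Several of the largest ratios were not particular to the somitic cells in size. *GAPDH*, a glycolytic enzyme, had 17 UMIs in the E19 HSTS somitic cells and 3405 in the E19 HS cells, and the other cells showed the same gap, at 4.54 against 1472 CPM. *QDPR*, an enzyme of biopterin recycling, stood at 50.7, 9.49 and 13.7 CPM, a ratio of 5.34 against 3.49 in the other cells. The ribosomal protein gene *RPS6* stood at 3407, 985 and 2191 CPM, a ratio of 3.46 against 2.93. *SERHL2*, *GSTM3*, a glutathione transferase, and *BNIP3*, a hypoxia-responsive mitochondrial protein, were lower in the E19 HSTS sample, at 0.44, 0.45 and 0.49 of the E19 HS level, and at 0.41, 0.31 and 0.44 in the other cells. How near-identical gene copies were counted is not given in the sources used here, so *GAPDH* and *RPS6* in particular are uncertain.

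Many of the remaining genes of that ranking rested on few cells. *MYL7*, *MYL4*, *MYL3*, *TNNC1* and *ACTC1*, all of contractile fibres, were higher in the E19 HSTS sample, but 87% to 99% of their UMIs there lay in 3 cells. *SST*, *DLK1*, *STMN2* and *APOA1* were lower, and in the E19 HS sample 100%, 88%, 67% and 43% of their UMIs lay in 3 cells. *TSPO*, a protein of the outer mitochondrial membrane that was detected in nearly all red blood cells, stood at 14.9, 65.4 and 20.4 CPM, a ratio of 0.23 against 0.88 in the other cells. The summed blood list, in which the rule had capped *AHSP*, had a ratio of 1.00 (0.83 to 1.23) between the E19 somitic cells. The source of the *TSPO* difference was not tested. *INKA1*, a kinase inhibitor, stood at 24.4, 51.4 and 27.0 CPM, a ratio of 0.47.

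The E16 HS and E19 HS samples address the change with stage in the Hu sheep. They share the E19 HS library with the comparison of breeds, so a value that is low or high in that library alone moves both ratios. The segmentation list had the largest ratio, at 2.86 (2.28 to 3.62) against 1.85 in the other cells. *DLL3* stood at 59.8 CPM (179 UMIs) in the E16 HS sample, 12.5 (25 UMIs) in the E19 HS sample and 17.8 (56 UMIs) in the E19 HSTS sample, and its ratio was 4.79 (3.14 to 7.59) against 2.24 in the other cells. *DLL1* stood at 29.7 CPM (89 UMIs), 4.50 (9 UMIs) and 12.4 (39 UMIs) in the same order, a ratio of 6.61 (3.33 to 14.9) against 2.56. In cells with *MEOX1* but not *TWIST1* the ratios were 4.37 for *DLL3* and 5.03 for *DLL1*. With at least 2 UMIs of each rule gene, on 45 and 25 cells, they were 1.72 and 2.07. *RIPPLY2*, which sets somite boundaries, had 34 UMIs in the E16 HS sample against 3 in the E19 HS sample, and 59% of the former lay in 3 cells.

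Among 5215 genes tested, 273 (5.23%) were at least 2-fold higher and 130 (2.49%) at least 2-fold lower in the E16 HS sample. The median ratio was 1.19, a log2 shift of 0.25, and with median-of-ratios size factors the counts were 144 and 166. *LEF1* was among those higher, with a ratio of 3.22 (1.86 to 5.91) against 1.88 in the other cells. *TCF15* had a ratio of 2.18 (1.20 to 4.19) against 1.49 and *ALDH1A2* a ratio of 2.04 (1.20 to 3.63) against 0.98. They were the only 2 of 8 pan-somitic genes tested that reached 2-fold, and 5 of the 8 were below 1. The median of the 8 was 0.91, and the summed pan-somitic ratio was 0.97 (0.87 to 1.08) against 1.09 in the other cells. *CER1* had a ratio of 2.98 (1.97 to 4.67), but the other cells differed more, at 4.23, and with at least 2 UMIs of each rule gene it was 1.04.

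Of the 4 sclerotome genes tested, *SOX9* and *SOX5* were at least 2-fold lower in the E16 HS sample and none was 2-fold higher. *SOX9* had a ratio of 0.44 (0.37 to 0.53) against 0.79 in the other cells, and *SOX5*, its partner in cartilage, a ratio of 0.47 (0.27 to 0.80) against 0.65. *PAX1* fell under the minimum of 50 UMIs, and its ratio was 0.29 (0.15 to 0.56) against 0.50 in the other cells. *COL2A1* had a ratio of 1.21 (1.08 to 1.35) against 1.41. The summed sclerotome ratio was 0.82 (0.75 to 0.89), against 1.26 in the other cells. *PRRX1*, a homeobox gene of mesenchyme, stood at 4.34 CPM in the E16 HS sample, 19.0 in the E19 HS sample and 31.4 in the E19 HSTS sample, a ratio of 0.23 (0.11 to 0.44) against 0.43. The median over the 4 sclerotome genes tested was 0.51, and *SOX9* stood at 0.254 with at least 2 UMIs of each rule gene.

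Of the 2 dermomyotome genes tested, *DMRT2* was at least 2-fold higher in the E16 HS sample and *PAX3* was not. *PAX3* had a ratio of 1.99 (1.51 to 2.64), just under 2-fold, against 1.01 in the other cells, and *DMRT2* a ratio of 2.87 (1.42 to 6.41) against 1.51. The summed list of 11 genes had a ratio of 1.73 (1.39 to 2.16) against 0.97. The 9 genes with too few UMIs to be tested did not all lie on that side: *EN1*, for example, had 0 UMIs in the E16 HS sample and 3 in the E19 HS sample, and *MET* had 6 and 8. With at least 2 UMIs of each rule gene the ratios of *PAX3* and *DMRT2* were 7.86 and 1.22. Only 8% of the 25 E19 HS cells then held *PAX3* or *PAX7*, so the value of *PAX3* rests on very few cells. In the cells with *MEOX1* but not *TWIST1* the ratio of *PAX3* was 1.00 (0.82 to 1.22), and in those with *TWIST1* but not *MEOX1* it was 0.87 (0.71 to 1.05). Both of these intervals included 1, unlike that of the somitic cells, whereas *SOX9* was lower in both neighbouring classes, at 0.62 and 0.46. The difference between the classes was not tested.

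Matrix genes set the somitic cells apart from the rest of the E16 HS sample. The 13 matrix genes summed to 1651 CPM in the E16 HS somitic cells and 1729 in the E19 HS cells, a ratio of 0.95 (0.91 to 1.00), while in the other cells the ratio was 3.00. The level sum covers members that differed both ways: of the 12 tested, 3 were at least 2-fold higher in the E16 HS somitic cells (*DCN*, *COL5A1* and *HAPLN1*) and 2 at least 2-fold lower (*LUM* and *POSTN*). *COL1A1* stood at 116 CPM in the somitic cells of both Hu sheep samples and at 738 against 96.5 CPM in the other cells. *COL3A1* stood at 432 and 448 CPM in the somitic cells and at 725 and 231 in the rest. *LUM* (lumican) was lower in the E16 HS somitic cells, at 62.8 against 142 CPM, and higher in the other cells, at 312 against 85.9. *DCN* was higher, at 45.7 against 16.0 CPM, a ratio of 2.86 that was 1.65 with at least 2 UMIs of each rule gene.

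Of the genes picked by size of ratio, some were as different in the other cells. *FOS*, an immediate early gene that responds to stress and to dissociation, had 13 UMIs in the E16 HS sample, 268 in the E19 HS sample and 631 in the E19 HSTS sample, a ratio of 0.03 that was also 0.03 in the other cells. *JUN*, its partner, stood at 66.4, 202 and 256 CPM in the same order, a ratio of 0.33 in both classes. The histone genes *H1-4*, *H1-2* and *H2AC6* had ratios of 0.34, 0.34 and 0.37, and 0.34, 0.31 and 0.34 in the other cells. *SPAG6*, a gene of the ciliary axoneme, stood at 37.1 CPM in the E16 HS sample, 3.00 in the E19 HS sample and 3.17 in the E19 HSTS sample, a ratio of 12.4 (5.50 to 34.4) against 6.65 in the other cells. It was 2.32 with at least 2 UMIs of each rule gene and 21.2 without the 3 highest cells. Few E19 HS UMIs of *SPAG6* remained without those cells, and counts under 3 UMIs were set to 3, so 21.2 says little. *CITED1*, a transcriptional coactivator, stood at 71.1, 17.0 and 16.8 CPM, a ratio of 4.19 against 2.92, or 1.57 with at least 2 UMIs of each rule gene. *CDC42EP5*, an effector of the small GTPase CDC42, stood at 70.4, 305 and 195 CPM, a ratio of 0.23 against 0.62. *PNP*, an enzyme of purine salvage, *RRP12*, a factor of ribosome assembly, and *CARS1*, a cysteinyl-tRNA synthetase, had ratios of 3.21, 3.08 and 2.98, against 2.00, 2.88 and 2.36 in the other cells. *BAX*, which promotes cell death, had a ratio of 0.34 against 0.48. *PLCH1* had a ratio of 3.68 (2.27 to 6.25) against 1.01 in the other cells. *TAGLN*, an actin-binding gene of smooth muscle, and *KRT19*, an epithelial keratin, were higher by ratios of 6.06 and 6.05, with 31% and 51% of their E16 HS UMIs in 3 cells (*KRT19* was 2.97 with *AHSP* at 0), and *SST*, *STMN2* and *TSPO*, which were high in the E19 HS library, were also lower in this comparison.

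**Figure D5:**
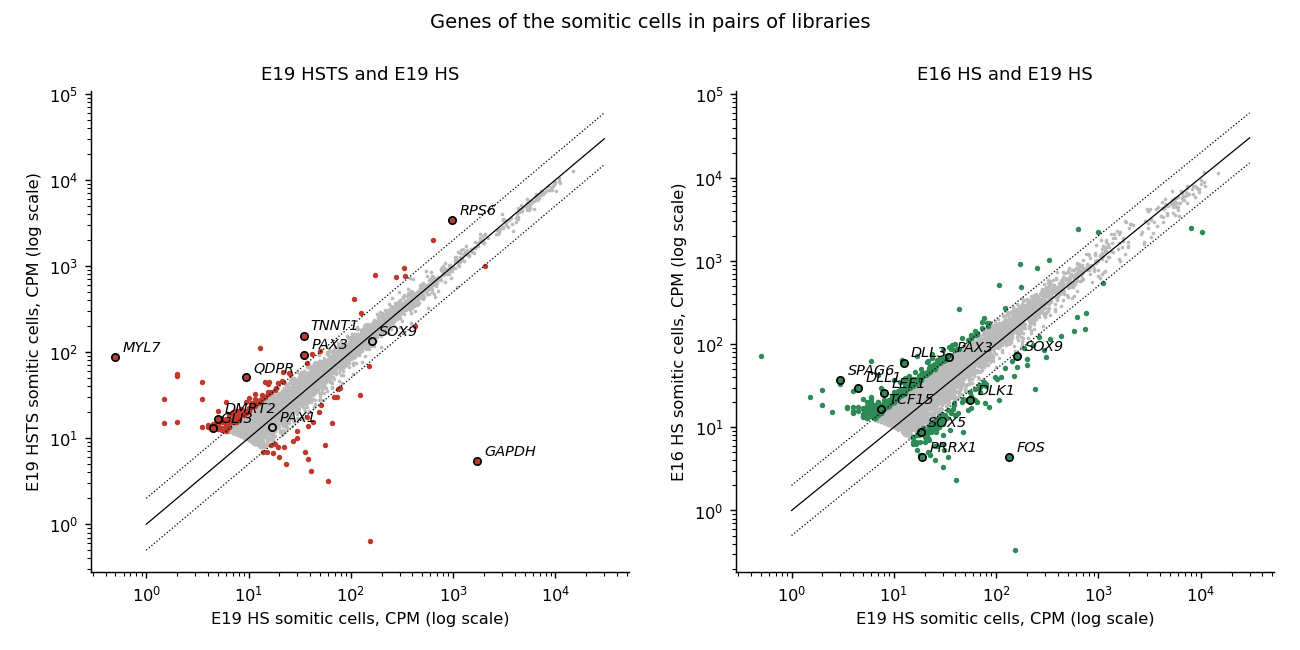
CPM of each tested gene in the somitic cells of the E19 HSTS (left) and E16 HS (right) samples against the E19 HS sample (both axes log scale; solid line equal levels, dotted lines 2-fold, coloured points at least 2-fold apart). Of the tested genes, 140 lie above and 32 below the 2-fold lines on the left, and 273 and 130 on the right.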

How the data were processed

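Single-cell suspensions of whole embryos were captured with a 10x Genomics 3' kit, and the authors aligned the reads to Ovis_aries_genome_v1.0 with Cell Ranger 6.1.2. The deposited matrices hold raw UMI counts per gene and cell, not normalized, and they were used as deposited; the Seurat 4.1.1 steps and the imputation of the study were not used. Here 24517 genes remained after rows with the same symbol were summed. Kept cells followed the study's limits, and members followed the rule given in the report. The members and the gene lists were chosen with earlier results of these data known. With 1 library per group, no test was run. Counts were summed over members, and genes with at least 50 UMIs over both libraries together were compared, 2-fold or more being counted. Intervals are exact (Poisson, Clopper-Pearson, conditional binomial). Beside list genes, the text names per comparison the 10 highest and 10 lowest ratios among genes with 100 UMIs or more in the higher library, and the 12 genes whose lowest of 3 ratios to the other cells was largest. Doublets were scored with Scrublet in scanpy 1.11.5 and not removed. Python 3.11.15, numpy 2.4.6, scipy 1.17.1 and pandas 2.3.3 were used, and the scripts were tested on simulated data. Alternatives covered the cell filter, the detection limits, depth, doublets, scaling, gene minimum and cell weight. Of 313 genes in 31 lists, 295 had a symbol in the files, and no sequences were analysed here.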

Additional observations from a re-analysis of the deposited data

How the results depend on the processing

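Of 136 summary values under the alternatives, 96 stayed close to the reported value and 40 moved. No paired analysis was possible because each group was 1 library. Without the cell filter, the share of somitic cells in the E19 HSTS sample was 3.09%, and with *AHSP* at 0 UMIs that in the E16 HS sample was 1.74%. With at least 2 UMIs of *TWIST1* and of *MEOX1* the shares were 0.551%, 0.235% and 0.397% in the E19 HSTS, E19 HS and E16 HS samples. *PAX3* or *PAX7* was then in 8% of the E19 HS and 48.9% of the E16 HS cells, and *PAX1* or *PAX9* in 18.9% of the E19 HSTS and 24% of the E19 HS cells. Genes higher and lower numbered 45 and 10 between the E19 samples, 127 and 32 between the Hu sheep samples, and 53 and 19 against the other cells. *BNIP3* (E19, 1.01) and *PFKP* (Hu sheep, 0.804) crossed 1. With cells thinned to 3000 UMIs before the rule, the shares were 0.881%, 0.797% and 0.599%, *PAX3* or *PAX7* was in 17.3%, 8.11% and 13.3% of the cells, and *PAX1* or *PAX9* in 2.67% of the E19 HSTS and 10.8% of the E19 HS cells. The genes numbered 23 and 10, 39 and 20, and 13 and 10 in the same order, and *APOA1* (1.08) and *GAS2* (1.23) crossed 1 between the Hu sheep samples. These 2 settings left 25 to 75 cells a sample. Median-of-ratios size factors gave 84 and 55 genes between the E19 samples and 144 higher in the E16 HS sample. A gene minimum of 10 UMIs gave 684 and 258 between the E19 samples and 821 and 532 between the Hu sheep samples, and 1 UMI in each library gave 957 and 704, and 1258 and 1068, since low counts give wide ratios. *TNNT2* (0.999, none of the 4 muscle genes) and *APOA2* (1.02, without the 3 highest cells) crossed 1 between the E19 samples. The settings without the 3 highest cells of a gene and without cells with cardiac markers were chosen after seeing the data. Except where a construction is named, the cause was not tested. Ratios under 10 UMIs in both libraries together were given no value. With 1 library per group, differences between embryos of a group could not be measured.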
